A study of Mus musculus with 4 samples.

Results

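The genes described here form the ATF4-CHOP branch of the unfolded protein response. They are the transcription factor genes Atf4, Atf5, Ddit3, Atf3 and Cebpb and the feedback and effector genes Trib3, Ppp1r15a, Chac1, Sesn2 and Stc2. Members were chosen by name, as each probe set of the array whose annotation gives one of these symbols. This found 18 probe sets of 45037, for 10 genes of the 18193 that have a probe set of their own. No probe set, the group of short probes read as 1 signal, names one of these genes together with another gene. A gene with several probe sets is represented by the brightest, taken by mean log2 signal over the arrays, and the others are given beside it because signals of different probe sets cannot be compared in level.

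Rib chondrocytes were isolated by collagenase digestion from mice aged 5 days, all described as C57BL6/J, and 1 whole-genome 3′ expression array was hybridized per genotype. Wild type cells, labelled Xbp1 WT, carried unmutated Xbp1 and Matn3. XBP1 null cells, labelled Xbp1 KO, lacked exon 2 of Xbp1 through a Cre recombinase driven by the Col2a1 promoter, which acts in chondrocytes, so that other cells of the rib cartilage keep the intact gene. Matn3 mutant cells, labelled Xbp1 WT Matn3 MUT, carried the V194D substitution of matrilin-3, a cartilage matrix protein, as a homozygous knock-in that models a multiple epiphyseal dysplasia. Double mutant cells, labelled Xbp1 KO Matn3 MUT, carried both. The RNA of each array was pooled from 3 extractions, and there was no replicate array of any genotype. Differences between arrays therefore carry no error and no p-value, and the order of the 4 genotypes by level is a description.

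When misfolded protein builds up in the endoplasmic reticulum (ER), the kinase PERK phosphorylates the translation factor eIF2. This lowers protein synthesis in general but raises translation of the ATF4 mRNA, so that ATF4 protein can increase with little change in its transcript. ATF4 and the CHOP protein it induces, encoded by Ddit3, then drive genes of amino acid metabolism, redox defence and cell death, and genes that limit the response. The branch runs beside the IRE1-XBP1 and ATF6 branches, and it is known from several chondrodysplasias in which a mutant matrix protein is retained in the ER of chondrocytes.

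ATF4 acts in dimers with C/EBP proteins at C/EBP-ATF response elements, so promoter windows of the members were searched for the core TGATGNAA on both strands. RefSeq windows of assembly GRCm38.p6, from 250 bases before to 50 bases after a transcription start, were matched for 10 of 10 genes (11 windows, since Atf5 has more than 1 start). The core was found in 3 of 11 windows, those of Chac1, Trib3 and Atf3, and in 3.97% of all 32851 windows. The full palindrome of the cAMP response element, TGACGTCA, was found in the window of Ppp1r15a alone, against 1.79% of all windows. The ER stress response element, read as CCAAT, 9 further bases of any kind and CCACG, was found in 0 of 11 member windows and in 0.119% of all. No matches of these motifs overlapped. A match of letters is not a measured binding site, and the lack of a match says only that these letters are not in the window. The windows with a match are shown 5′ to 3′ on the strand of the gene, with the match in capitals, because they are the only member windows that hold any of the motifs. The first is chr2:119350992-119351241 on the plus strand, and the second is chr2:152344031-152344310 on the minus strand. The third is chr1:191183334-191183583 and the fourth chr7:45526269-45526518, both on the minus strand. Those of Chac1, Atf3 and Ppp1r15a end at the base before the start, and that of Trib3 runs 30 bases past it.
Chac1: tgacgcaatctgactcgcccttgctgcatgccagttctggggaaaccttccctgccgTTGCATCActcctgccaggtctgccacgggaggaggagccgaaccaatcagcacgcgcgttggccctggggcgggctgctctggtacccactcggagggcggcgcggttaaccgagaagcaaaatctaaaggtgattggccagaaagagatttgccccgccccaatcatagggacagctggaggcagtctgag
Trib3: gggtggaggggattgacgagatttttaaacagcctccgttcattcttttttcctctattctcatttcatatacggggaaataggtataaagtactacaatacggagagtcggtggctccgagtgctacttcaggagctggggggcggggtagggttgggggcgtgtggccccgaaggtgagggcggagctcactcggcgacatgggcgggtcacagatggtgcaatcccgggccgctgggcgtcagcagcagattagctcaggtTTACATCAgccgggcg
Atf3: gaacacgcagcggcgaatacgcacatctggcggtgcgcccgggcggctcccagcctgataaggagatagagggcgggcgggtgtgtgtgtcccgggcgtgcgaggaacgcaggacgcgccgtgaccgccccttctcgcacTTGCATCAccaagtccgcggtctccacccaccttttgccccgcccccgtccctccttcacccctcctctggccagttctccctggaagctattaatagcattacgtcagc
Ppp1r15a: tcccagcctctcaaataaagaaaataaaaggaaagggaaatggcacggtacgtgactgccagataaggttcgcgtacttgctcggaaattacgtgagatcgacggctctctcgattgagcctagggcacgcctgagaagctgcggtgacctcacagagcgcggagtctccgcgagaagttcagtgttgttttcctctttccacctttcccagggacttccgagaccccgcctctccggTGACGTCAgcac
The core begins 193 bases before the start of Chac1, 110 bases before that of Atf3 and at base 15 after that of Trib3, each time on the strand opposite to the gene. The palindrome of Ppp1r15a begins 12 bases before the start.

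The 4 arrays had nearly equal medians of 43.8 linear signal units, 8.36% to 10.9% of signals were under 1, and the highest signals were 18520 to 24498. All 8 chondrocyte markers examined, from Col2a1 to Sox9, were at or above the median of the array on each of the 4, with summed signals of 81262 to 99245. On its brightest probe set Xbp1 measured 8183 for wild type, 7877 for XBP1 null, 11403 for Matn3 mutant and 9548 for double mutant cells. Where the probes lie relative to exon 2 was not analysed here, so these values cannot check the deletion. Matn3 had 10185, 9945, 10462 and 10572 in the same order. Genes that respond to tissue dissociation and markers of endothelium, adipocytes, osteoblasts, erythroid cells and sex also differed between the pools. Their values are given in the paragraphs below.

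Atf4, the master regulator of the branch, had a signal of 10502 for wild type, 12128 for XBP1 null, 12786 for Matn3 mutant and 13478 for double mutant chondrocytes on its brightest probe set (1448135_at). The transcript was thus abundant in each pool, lowest in wild type and highest in the double mutant, and the 4 values spanned 1.28-fold. A second probe set (1438992_x_at), whose name marks it as able to bind related transcripts, ran in the same order with 7724, 8335, 9836 and 9994. The third (1439258_at) was dim, at 6.31, 15.9, 35.4 and 34.8, all below the median of its array. It was 5.62-fold higher in the Matn3 mutant than in wild type, where the brighter probe sets were 1.22-fold and 1.27-fold higher, so the large ratio rests on low signals. ATF4 protein was not measured by these arrays.

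Atf5 encodes a close relative of ATF4 whose translation is also controlled through eIF2. Among the transcription factor genes of the members, it was the farthest from wild type in each mutant on brightest probe sets. Its only probe set (1425927_a_at) had 448 for wild type, 903 for XBP1 null, 1533 for Matn3 mutant and 1819 for double mutant chondrocytes. The signal was 2.01-fold higher in XBP1 null, 3.42-fold higher in the Matn3 mutant and 4.06-fold higher in the double mutant than in wild type. With the Matn3 mutation on the XBP1 null background it was 2.02-fold higher. The double mutant and the Matn3 mutant, which differ in XBP1, were within 1.19-fold of each other. Fewer cells of a type and less RNA per cell cannot be told apart in RNA of whole preparations, here or in any value that follows.

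**Figure D1:**
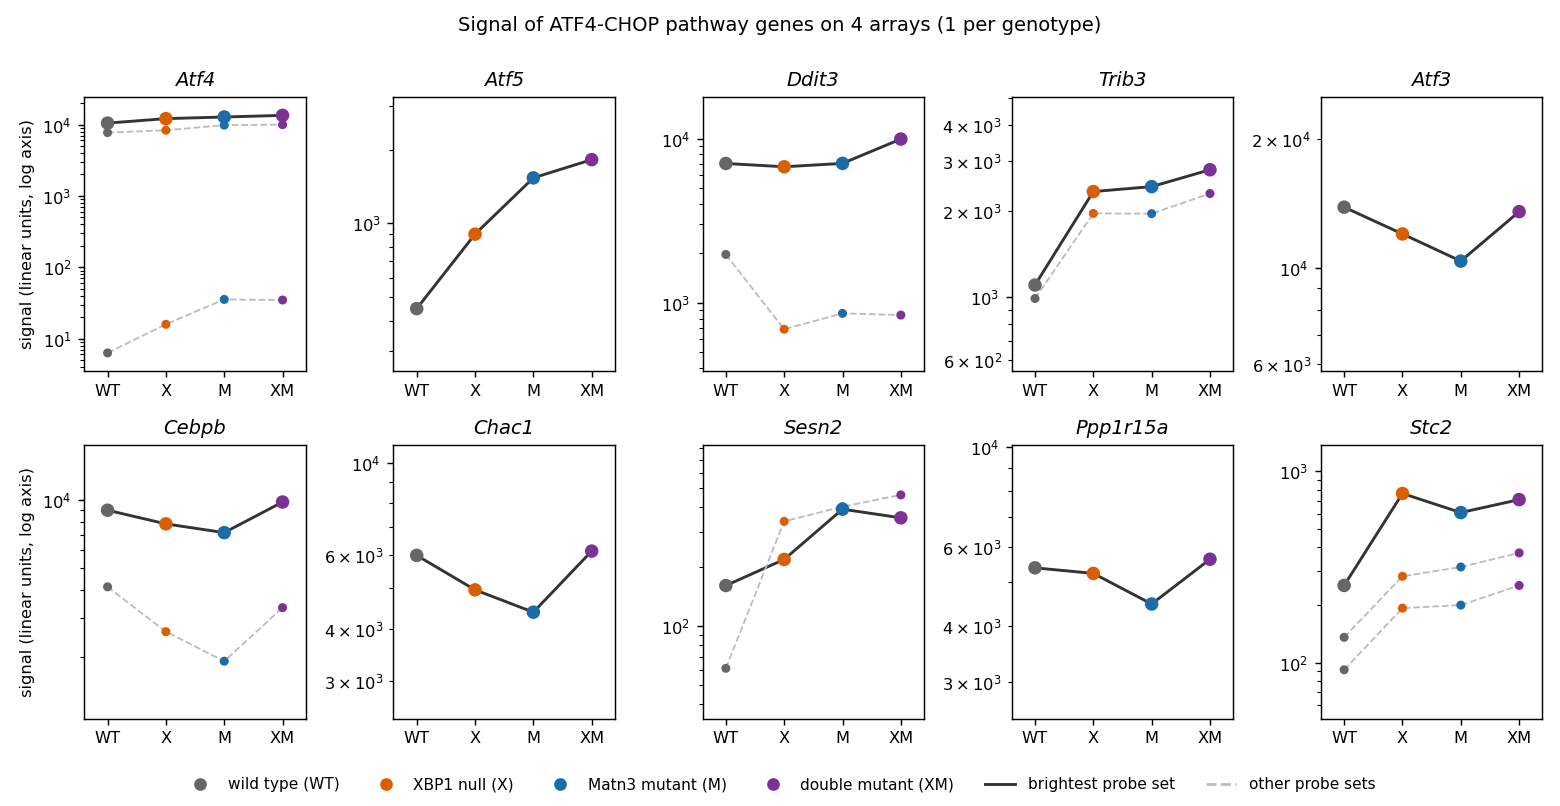
Linear signal (log axis, a separate range for each gene) of the 10 genes on the wild type (WT), XBP1 null (X), Matn3 mutant (M) and double mutant (XM) arrays, 1 array each and hence no error bars; large points and solid lines mark the brightest probe set and small points with dashed lines the others. Atf5 climbs from 448 in wild type to 1819 in the double mutant, whereas Atf3, Cebpb, Chac1 and Ppp1r15a have their lowest signal in the Matn3 mutant.

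Ddit3, which encodes the proapoptotic factor CHOP, had 7047 for wild type, 6726 for XBP1 null, 7053 for Matn3 mutant and 9927 for double mutant chondrocytes on its brightest probe set (1417516_at). The first 3 pools were within 1.05-fold of each other, and the double mutant stood 1.41-fold above both wild type and the Matn3 mutant and 1.48-fold above XBP1 null, in each case short of the 1.5-fold taken as a difference. The other probe set (1443897_at) had 1966, 688, 860 and 839. On it wild type was the highest, and the mutants were 2.86-fold, 2.29-fold and 2.34-fold lower. The probe sets of Ddit3 thus disagree, both in the mutants against wild type and in where the double mutant stands, and which of them follows the CHOP transcript was not tested.

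Cebpb encodes C/EBP beta, a dimer partner of CHOP and ATF4, and its brightest probe set (1418901_at) had 9025, 7847, 7174 and 9812 for the 4 genotypes in the same order. The values lie within 1.37-fold of each other, with XBP1 null and the Matn3 mutant below wild type and the double mutant above it. Its other probe set (1427844_a_at) followed the same outline more widely, with 4118, 2602, 1923 and 3327. There the Matn3 mutant was 2.14-fold and XBP1 null 1.58-fold lower than wild type, and the double mutant was 1.73-fold higher than the Matn3 mutant. Atf3, a stress-induced factor that acts downstream of ATF4, had 13866, 12018, 10396 and 13540 on its probe set (1449363_at). The Matn3 mutant was 1.33-fold lower than wild type, and the double mutant was within 1.02-fold of wild type.

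Trib3 encodes a pseudokinase that binds ATF4 and CHOP and restrains their activity, and its transcript stood higher in each mutant pool. The brightest probe set (1456225_x_at, able to bind related transcripts by its name) had 1099 for wild type, 2341 for XBP1 null, 2437 for Matn3 mutant and 2793 for double mutant chondrocytes. The other one (1426065_a_at) had 985, 1961, 1958 and 2304. On the former, signals were 2.13-fold, 2.22-fold and 2.54-fold higher than in wild type, and on the latter 1.99-fold, 1.99-fold and 2.34-fold. The 3 mutant pools were within 1.19-fold of each other on both, so wild type stood apart.

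Stc2, which encodes the secreted glycoprotein stanniocalcin 2, showed the same arrangement. Its brightest probe set (1449484_at) had 253 for wild type, 765 for XBP1 null, 608 for Matn3 mutant and 710 for double mutant, or 3.02-fold, 2.40-fold and 2.81-fold above wild type. A second (1419503_at) had 136, 282, 316 and 374, and the last (1445186_at) 91.7, 192.5, 199.7 and 252.9. All 3 probe sets were over 2-fold higher in each mutant than in wild type, but they differ in which mutant was highest. XBP1 null led on the brightest probe set and the double mutant on the other ones.

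Sesn2 encodes sestrin 2, a stress-induced inhibitor of mTORC1 signalling, and its brightest probe set (1425139_at) had 161 for wild type, 218 for XBP1 null, 392 for Matn3 mutant and 354 for double mutant chondrocytes. Both pools with the Matn3 mutation stood above both pools without it. The Matn3 mutant was 2.44-fold higher than wild type and the double mutant 1.63-fold higher than XBP1 null, while XBP1 null was 1.36-fold higher than wild type. The other probe set (1451599_at) had 61.0, 340.1, 403.5 and 463.1, with each mutant far above wild type. On that one XBP1 null was 5.57-fold, the Matn3 mutant 6.61-fold and the double mutant 7.59-fold higher, so the size of the difference in XBP1 null cells depended on the probe set.

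Chac1 encodes a glutathione-degrading enzyme that is a sensitive target of ATF4 and CHOP, and Ppp1r15a encodes GADD34, the subunit that directs a phosphatase to eIF2 and closes the loop. Chac1 (1451382_at) had 5998 for wild type, 4959 for XBP1 null, 4384 for Matn3 mutant and 6143 for double mutant chondrocytes. Ppp1r15a (1448325_at) had 5387, 5235, 4475 and 5629. Neither gene differed by 1.5-fold between any pair of pools. The Matn3 mutant was the lowest for both, 1.37-fold and 1.20-fold below wild type, and the double mutant was the highest, 1.02-fold and 1.04-fold above it.

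**Figure D2:**
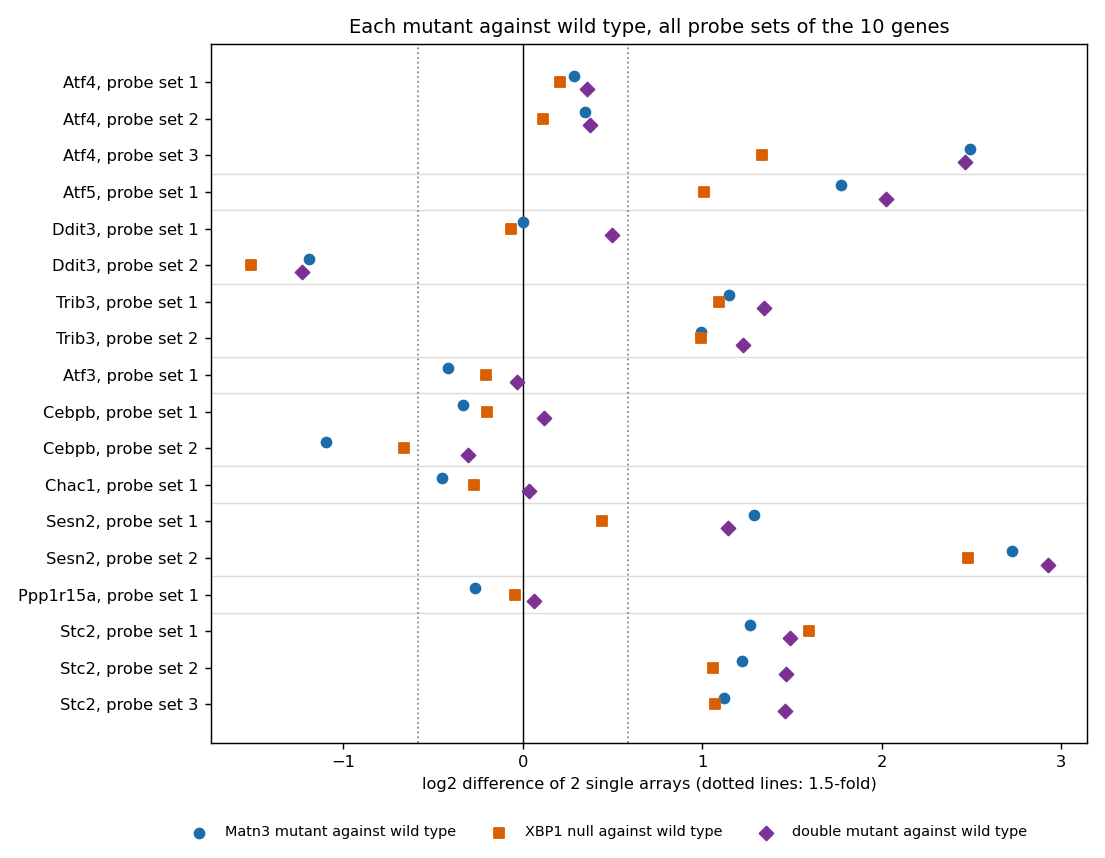
Log2 difference of each mutant array from the wild type array (horizontal axis) for the 18 probe sets, numbered from the brightest down within each gene; circles are the Matn3 mutant, squares XBP1 null and diamonds the double mutant, dotted lines mark 1.5-fold, and each point is a difference of single arrays without error. All probe sets of Atf5, Trib3 and Stc2 lie right of the upper line in the 3 mutants, and the second probe set of Ddit3 lies left of the lower one.

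In Matn3 mutant chondrocytes set against wild type, 4 of 10 genes were over 1.5-fold higher on their brightest probe set (Atf5, Trib3, Sesn2 and Stc2) and 0 were lower by that much. Over all 18193 genes, 21.2% were higher and 19.3% lower by this rule. The members' share was above the first background and below the second, with no test of that difference, and their median log2 difference was 0.14, beside 0 for all genes. Taken as the median over its probe sets, Ddit3 (-0.60) and Cebpb (-0.71) would count as lower too. By probe sets, 9 of 18 were higher and 2 lower, beside 22% and 20.8% of all probe sets. In the same comparison Y-linked genes, a list added after their values were known, summed to 770 for wild type and 3 for the Matn3 mutant, with 1110 in XBP1 null and 1448 in the double mutant. The pools therefore differed in the sex of the mice, and the part of this in the members' values was not tested.

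In XBP1 null compared to wild type, 3 of 10 genes were over 1.5-fold higher (Atf5, Trib3 and Stc2) and 0 lower, beside 23.3% and 11.5% of all genes, a share close to the background. The median log2 difference was 0.08, beside 0.09 for all genes. With the median over probe sets, Ddit3 (-0.79) would count as lower and Sesn2 (1.46) as higher. By probe sets, 8 of 18 were higher and 2 lower, beside 21.6% and 17.5%. In the double mutant set against wild type, 4 of 10 were higher (Atf5, Trib3, Sesn2 and Stc2) and 0 lower, beside 24.1% and 12.1% of all genes, with a median log2 difference of 0.43 for the members and 0.13 for all genes. By probe sets, 9 of 18 were higher and 1 lower, beside 22.8% and 19.2%. These comparisons and that of the Matn3 mutant share the wild type array, so a low wild type value enters each of them.

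Endothelial markers also differed in these contrasts with wild type. Their summed signal over 7 genes was 61 for wild type, 3719 for XBP1 null, 433 for Matn3 mutant and 715 for double mutant. Over 1.5-fold higher than in wild type were 7 of 7 in XBP1 null, 6 in the Matn3 mutant and 6 in the double mutant. The shares of all genes higher in these comparisons were 23.3%, 21.2% and 24.1%. Pecam1, a defining marker, was under 1 in wild type, the Matn3 mutant and the double mutant. The 2 adipocyte markers measured summed to 500, 4313, 865 and 1163, and 7 leukocyte markers to 544, 746, 655 and 732. In the same order, 4 osteoblast markers summed to 4829, 7522, 2550 and 5167, and 6 skeletal muscle markers to 3021, 2351, 1953 and 2745. The sums of 3 erythroid markers were 119, 197, 15 and 16. Of the osteoblast markers, 4 were over 1.5-fold higher in XBP1 null than in wild type, beside 23.3% of all genes. In the Matn3 mutant 3 were over 1.5-fold lower, beside 19.3%, and in the double mutant 2, beside 12.1%. The part of these cells in the members' values was not tested.

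Between the mutants, fewer members differed. In the double mutant set against XBP1 null, 2 of 10 genes were over 1.5-fold higher (Atf5 and Sesn2) and 0 lower, beside 16.6% and 16.9% of all genes, which is close to the background. By probe sets, 3 of 18 were higher and 0 lower, beside 18.1% and 19.5%; the third is the dim one of Atf4. In the double mutant set against the Matn3 mutant, 0 of 10 genes differed, beside 17.4% of all genes higher and 9.03% lower, and 1 of 18 probe sets, the dimmer one of Cebpb, was higher, beside 15.8%. The members' median log2 differences were 0.28 and 0.29 in these comparisons, beside 0 and 0.15 over all genes. Loss of XBP1 on the Matn3 mutant background thus left each member within 1.5-fold on its brightest probe set, with Ddit3 and Chac1 at the upper end, at 1.41-fold and 1.40-fold. Against XBP1 null, 7 of 7 endothelial and 2 of 2 adipocyte markers were over 1.5-fold lower in the double mutant, with medians of -2.21 and -1.76. Against the Matn3 mutant, 5 of 7 endothelial markers were higher and 0 lower, and Y-linked genes summed to 1448 beside 3. The part of these cells and of sex in the members' values was not tested.

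The comparison of Matn3 mutant with wild type and that of double mutant with XBP1 null use different arrays, and together they ask which differences of the Matn3 mutation recur without XBP1. Atf5 and Sesn2 were over 1.5-fold higher in both, 2 of 10 genes beside 7.49% of all genes, and 0 of 10 were lower in both, beside 5.47%. The log2 differences of Atf5 were 1.77 with XBP1 and 1.01 without it, and those of Sesn2 were 1.29 and 0.70. With the median over its probe sets, Sesn2 had 0.57 without XBP1, just short of 1.5-fold. Trib3, at 1.15 and 0.25, and Stc2, at 1.27 and -0.11, were past 1.5-fold with XBP1 alone. For loss of XBP1 on both Matn3 backgrounds, 0 of 10 genes were higher or lower in both, beside 4.65% and 1.8% of all genes.

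**Figure D3:**
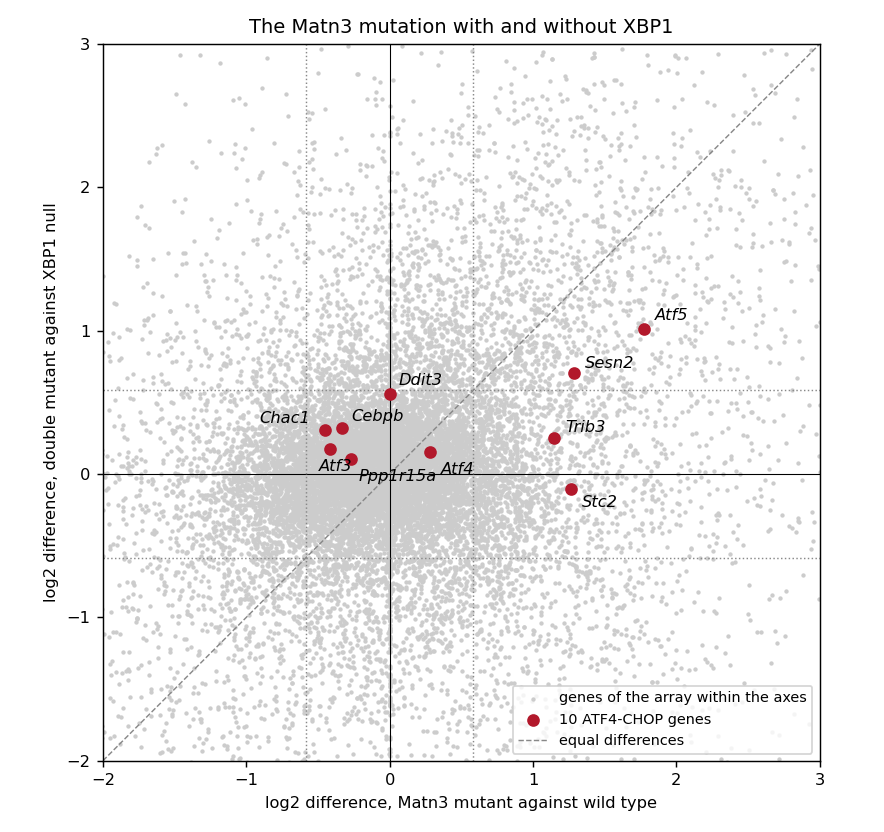
Log2 difference of the Matn3 mutant from wild type (horizontal) against that of the double mutant from XBP1 null (vertical), which share no array; red points are the 10 genes, grey points the other genes of the array that fall within the axes, dotted lines 1.5-fold and the dashed line equal differences. Atf5 and Sesn2 lie past 1.5-fold on both axes, and Trib3 and Stc2 on the horizontal one alone.

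The members fall on both sides of 0 when the differences of the Matn3 mutation with and without XBP1 are subtracted. On brightest probe sets the value is below 0 by over 1.5-fold for 4 genes. On the log2 scale it was -1.37 for Stc2, -0.89 for Trib3, -0.76 for Atf5 and -0.59 for Sesn2. That of Sesn2 becomes -0.58 and within 1.5-fold when each array is centred on its median, but was -2.28 on its other probe set. The value is above 0 by over 1.5-fold for 3 genes, at 0.76 for Chac1, 0.65 for Cebpb and 0.59 for Atf3. Over all genes, 23.2% were below and 23.6% above by this rule. Ddit3 had 0.56, Ppp1r15a 0.37 and Atf4 -0.13. The other probe set had 1.48 for Ddit3 and 1.45 for Cebpb, and the dim one of Atf4 had -1.36. These values have no test, since the 4 arrays leave no degree of freedom for one. The Matn3 mutant array, with a Y-linked sum of 3 beside 770 to 1448 on the others, enters each of them.

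The genes with values above 0 include 4, Atf3, Cebpb, Chac1 and Ppp1r15a, whose XBP1 null and Matn3 mutant signals were both below both wild type and the double mutant, as were those of 16% of all genes. This outline was noted after the values were seen. Immediate early genes, which are induced during enzymatic isolation of cells, were read beside it. Of 12 of them, of which 3 (Fos, Jun and Junb) also count among the bZIP genes described further on, 3 were over 1.5-fold lower in the Matn3 mutant than in wild type and 5 were over 1.5-fold higher in the double mutant than in the Matn3 mutant, beside 19.3% and 17.4% of all genes, and their median log2 differences were -0.30 and 0.44. In XBP1 null set against wild type 1 of 12 was lower and 0 were higher, beside 11.5% and 23.3% of all genes, with a median of -0.04. In the double mutant set against XBP1 null 0 differed by 1.5-fold, beside 16.6% of all genes higher and 16.9% lower, with a median of 0.21. Dusp1, a phosphatase gene of this group, had 11949 for wild type, 11374 for XBP1 null, 7414 for Matn3 mutant and 11660 for double mutant, and the AP-1 gene Fosb had 3063, 2957, 1754 and 3003. Both were lowest in the Matn3 mutant. Egr2, a zinc finger factor gene, had 1621, 2398, 1321 and 1803, with XBP1 null highest, and Ier3 had 12990, 14989, 17678 and 18492, with wild type lowest, so the list did not share 1 order. Fosb, Junb, Dusp1, Zfp36, Nr4a1 and Btg2 had the outline of the 4 members, and the other genes of the list did not. The part of cell isolation in the values of Atf3, Cebpb, Chac1 and Ppp1r15a was not tested. Nor was that of sex, and the Matn3 mutant was the pool with a Y-linked sum of 3.

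In a limma fit over the 4 arrays with additive effects of the mutation and of loss of XBP1, 0 of 45037 probe sets (0%) passed an adjusted p of 0.05 for either effect. At an unadjusted p under 0.05 there were 3381 (7.51%) for the mutation and 2052 (4.56%) for loss of XBP1, and of the 18 member probe sets 2 and 0. The 2 were those of Atf5, at 1.39 on the log2 scale (standard error 0.280, adjusted p = 0.635), and the brightest of Sesn2, with 0.99 (standard error 0.233, adjusted p = 0.635). Trib3 had 0.70 (standard error 0.324, adjusted p = 0.650) and Stc2 0.58 (standard error 0.487, adjusted p = 0.708). For loss of XBP1 the largest effect on a brightest probe set was that of Stc2, at 0.91 (standard error 0.487, adjusted p = 0.819). Atf4 had 0.22 (standard error 0.135) for the mutation and 0.14 for loss of XBP1, and Ddit3 had 0.28 and 0.21 (standard error 0.225 for both). The fit takes effects as additive and leaves 1 residual degree of freedom, so departures from additivity, which were large for Stc2 and Trib3, count as error.

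Around the members, the sensors and translation factors upstream of ATF4 were read as 1 list, and 13 of 14 were measured. Of these, 4 were over 1.5-fold higher and 2 lower in the Matn3 mutant than in wild type, 3 and 1 in XBP1 null, and 2 and 2 in the double mutant, with median log2 differences of 0.29, 0.24 and 0.30. The shares of all genes higher and lower were 21.2% and 19.3%, 23.3% and 11.5%, and 24.1% and 12.1% in these comparisons, with medians of 0, 0.09 and 0.13, and the counts of this list were near them. Eif2ak3, which encodes PERK and is named outside the rule for named genes, had 1190 for wild type, 1234 for XBP1 null, 1459 for Matn3 mutant and 1535 for double mutant, a span short of 1.5-fold. Dnajc3, which encodes the PERK inhibitor p58IPK, had 2109, 1769, 3525 and 2102, so it was high in the Matn3 mutant alone. Eif2ak1, the haem-regulated kinase gene, had 177, 108, 82.7 and 115, and Eif2b4, a subunit gene of the exchange factor that phosphorylated eIF2 blocks, had 642, 503, 284 and 413. Both were highest in wild type. Nck1, an adaptor gene that also acts on eIF2, had 1065, 994, 737 and 802.

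Of 15 measured genes of other bZIP factors, which share the dimer domain of ATF4 and CHOP, 6 were over 1.5-fold higher and 2 lower in the Matn3 mutant than in wild type, 5 and 2 in XBP1 null, and 5 and 0 in the double mutant, with median log2 differences of 0.34, 0.25 and 0.30. Beside them stand 21.2% and 19.3%, 23.3% and 11.5%, and 24.1% and 12.1% of all genes, with medians of 0, 0.09 and 0.13. Atf6, the sensor of another branch, had 187 for wild type, 509 for XBP1 null, 439 for Matn3 mutant and 405 for double mutant. Atf2 had 595, 924, 1178 and 1153, and the AP-1 gene Fosl2 had 1371, 2871, 2110 and 3180. As for Trib3 and Stc2, wild type was the lowest for these genes. Cebpa, of the C/EBP family, had 38.8, 94.0, 77.0 and 142, near the median of the arrays. Cebpd, named after its values were seen, had 5538, 3137, 2335 and 4760, an order that is also that of the dimmer probe set of Cebpb.

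Of 6 relatives of the feedback genes, 1 was over 1.5-fold higher and 1 lower in the Matn3 mutant than in wild type, 2 and 1 in XBP1 null, and 1 and 0 in the double mutant, beside 21.2% and 19.3%, 23.3% and 11.5%, and 24.1% and 12.1% of all genes. With 6 genes these counts are near the background. Stc1, the paralog of Stc2, had 8.69 for wild type, 297 for XBP1 null, 36.7 for Matn3 mutant and 35.4 for double mutant, below the median of its array in each pool but XBP1 null. Sesn1, a relative of Sesn2 known as a p53 target, had 997, 647, 559 and 745, with wild type highest where it was lowest for Sesn2. The tribbles genes Trib1, with 694, 1347, 853 and 945, and Trib2, with 1326, 1772, 1362 and 1307, were highest in XBP1 null.

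Further reported targets of ATF4 or CHOP numbered 19 measured of 20. Of these, 9 were over 1.5-fold higher and 0 lower in the Matn3 mutant than in wild type, 10 and 0 in XBP1 null, and 7 and 0 in the double mutant, with median log2 differences of 0.44, 0.62 and 0.47. Over all genes 21.2% were higher and 19.3% lower in the first comparison, 23.3% and 11.5% in the second, and 24.1% and 12.1% in the last, with medians of 0, 0.09 and 0.13. Slc7a11, which encodes the cystine transporter that feeds glutathione synthesis, had 32.4 for wild type, 132.6 for XBP1 null, 188 for Matn3 mutant and 118 for double mutant. The serine synthesis genes Psat1, with 1014, 1993, 2431 and 2145, and Phgdh, with 1006, 1687, 1816 and 2046, likewise had their lowest signal in wild type. Nupr1, a stress-induced chromatin protein gene, had 4865, 5677, 8153 and 9381, with both pools carrying the Matn3 mutation above both without it, as for Sesn2. In the double mutant set against XBP1 null, 2 of the 19 were higher and 1 lower, beside 16.6% and 16.9% of all genes. Compared to the Matn3 mutant, 1 was higher and 2 lower, beside 17.4% and 9.03%.

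**Figure D4:**
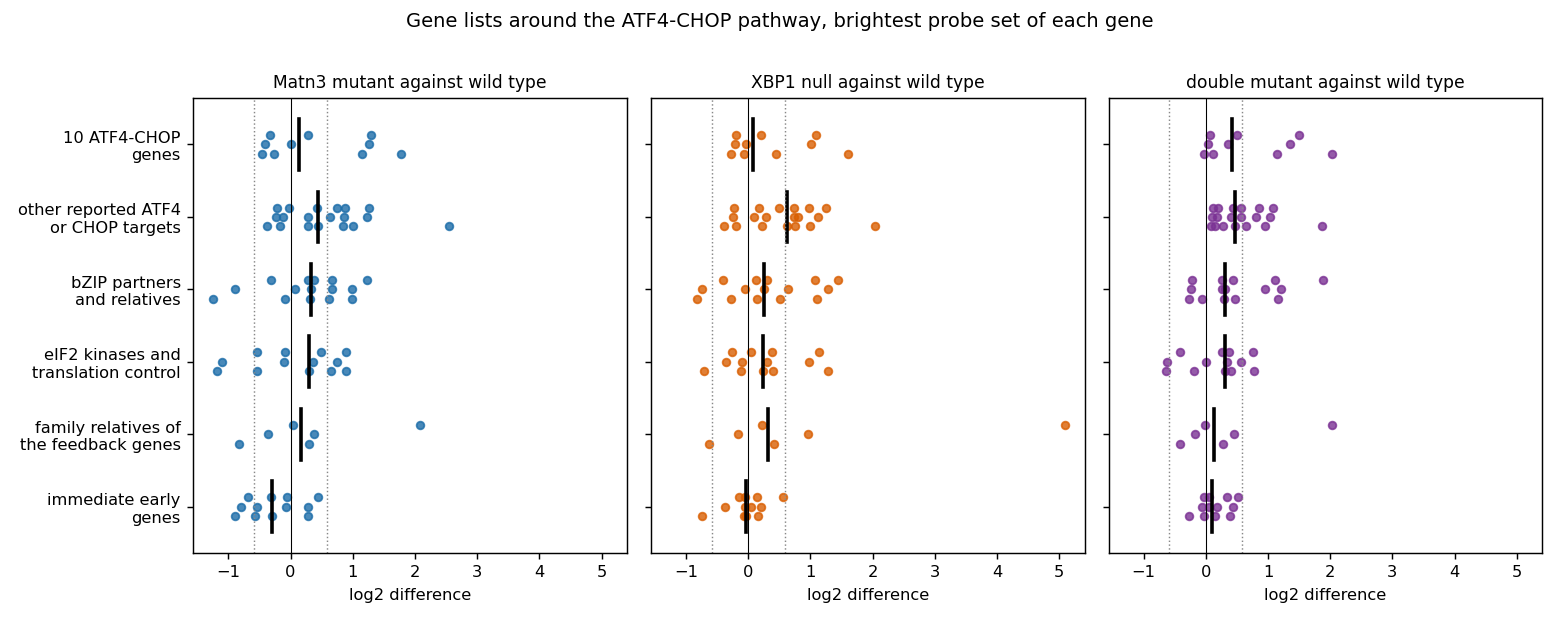
Log2 difference of each gene's brightest probe set (horizontal axis, same range in each panel) in the Matn3 mutant, XBP1 null and double mutant arrays compared to the wild type array, for the 10 genes and the lists around them; points are genes, black bars medians and dotted lines 1.5-fold. The bar of the other reported ATF4 or CHOP targets lies at 0.44, 0.62 and 0.47, and that of the 10 genes at 0.14, 0.08 and 0.43; the outlying relative is Stc1.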

How the data were processed

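Total RNA of rib chondrocytes was hybridized to 1 Mouse430_2 array per genotype. The authors deposited linear intensities of 45037 probe sets; their summarization and scaling were not given in the sources used here, and the PPLR test of the methods, which works from errors of single probes, was not applied. Signals under 1 were set to 1 and taken as log2. The brightest probe set (by mean log2) stood for its gene; 34945 probe sets name 1 gene, 932 several and 9160 none. A difference of single arrays over 1.5-fold was counted. The 4 arrays were fitted in limma 3.58.1 with R 4.3.3 (additive effects, eBayes with trend, Benjamini-Hochberg over all probe sets), after the fit was tested on simulated data. Python 3.11.15 with pandas 2.3.3 and numpy 2.4.6 made the tables. Members and gene lists were chosen with earlier results of these data known. In each list, up to 4 genes above the median signal with the largest additive effect of the mutation were named. The position of probes within transcripts was not analysed here. With 1 array per genotype, the number of arrays limits the precision. Alternatives were array centring, quantile normalization, a higher floor (25th percentile), the median over probe sets and a 2-fold limit. Further ones were probe sets without an _x_at, _s_at or _a_at suffix where a gene has such, eBayes without trend, and probe sets above the median alone.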

Additional observations from a re-analysis of the deposited data

Results flagged for a closer look

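The difference of the Matn3 mutation had opposite signs with and without XBP1 for 5 of the 10 genes on their brightest probe set. On the log2 scale, the difference without XBP1 less that with it was 0.59 for Atf3, 0.65 for Cebpb, 0.76 for Chac1 and 0.37 for Ppp1r15a, which were lower in the Matn3 mutant than in wild type and higher in the double mutant than in XBP1 null. It was -1.37 for Stc2, which was 2.40-fold higher in the Matn3 mutant than in wild type and 1.08-fold lower in the double mutant than in XBP1 null. The other probe sets of Stc2 were 1.33-fold and 1.31-fold higher in the latter comparison, so the opposite sign rests on the brightest. Ddit3 is not among the 5, but its other probe set also had opposite signs. It was 2.29-fold lower in the Matn3 mutant than in wild type, and 1.22-fold higher in the double mutant than in XBP1 null. With 1 array per genotype these differences were not tested. Opposite signs of the kind seen in Atf3, Cebpb, Chac1 and Ppp1r15a, at any size, were present in 21.6% of all genes. The share of all genes with the kind seen in Stc2 was not counted, so the 5 genes together have no background here.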

How the results depend on the processing

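Taking the median over the probe sets of a gene changed the most. The members over 1.5-fold lower became 2 in the Matn3 mutant (Ddit3 at -0.60 and Cebpb at -0.71 on the log2 scale) and 1 in XBP1 null (Ddit3 at -0.79) compared to wild type. Sesn2 passed 1.5-fold in XBP1 null (1.46) and fell short of it in the double mutant set against XBP1 null (0.57), which left 1 member higher there, and Cebpb (0.62) became the 1 member higher in the double mutant set against the Matn3 mutant. The difference of differences of Ddit3 became 1.02, that of Cebpb 1.05, that of Sesn2 -1.43 and that of Stc2 -0.81. A 2-fold limit left 1 member higher, Atf5, in the double mutant set against XBP1 null. With arrays centred, the difference of differences of Sesn2 was -0.58, just within 1.5-fold. No direction of a called value reversed, and quantile normalization left 60 of 60 member values on their side of 1.5-fold. The higher floor, 5.52, lies below every signal of the brightest member probe sets (lowest 161), so it could not change these values. The suffix filter could not either, since it kept Atf5 and Trib3, and the other brightest member probe sets carry no such suffix. Some values within 1.5-fold changed sign. With the median over probe sets, Ddit3 in the double mutant against wild type went from 0.49 to -0.37. Limited to the 22519 probe sets above the median, the limma fit called 13 probe sets for the Matn3 mutation, of which 0 were of members (smallest adjusted p 0.218), and 0 for loss of XBP1 (smallest adjusted p of a member 0.699). No paired analysis was possible because each genotype has 1 array, and for the same reason no replicate could be left out.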

Other observations

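Of 10885 genes outside the lists and above the median signal, those whose centred log2 profile over the 4 arrays lay nearest to the mean of the 10 members were Bet1l, a gene of vesicle transport, at a root mean square distance of 0.0167, Tmem69, at 0.0171, and Creb3l2, which encodes the ER stress transducer BBF2H7, at 0.0221. The mean profile of the members was -0.37 for wild type, -0.02 for XBP1 null, 0.06 for Matn3 mutant and 0.33 for double mutant. Over 4 arrays many profiles lie close together, and the likeness is a description.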
